A study of Mus musculus with 2 samples.

Results

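The translation initiation and elongation factors were examined in Neuro2a cells after knockdown of CPEB1. The members were the probe sets whose platform annotation names a single gene with a symbol beginning with Eif1, Eif2, Eif3, Eif4, Eif5, Eif6, Eef1 or Eef2, without the Eif2ak kinases, the Argonaute genes formerly called Eif2c, and Eif4enif1. This gave 141 of 45037 probe sets, for 53 of 18193 genes with a symbol of their own. The rule goes by gene name and uses no measured value. Among the core factors, Eif1, Eif2s1 and Eif4g1 had no probe set that met this rule and were not analysed here.

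RNA was measured on 2 Affymetrix Mouse Genome 430 2.0 arrays. One array held RNA of cells treated for 24 h with siRNA against Cpeb1 (siCPEB1), and the other held RNA of cells treated for 24 h with control siRNA (siControl). Neuro2a is an established mouse neuroblastoma line with features of sympathetic neurons, and both cultures were otherwise unmodified cells grown in the same medium and transfected with Lipofectamine RNAiMAX. CPEB1 binds the cytoplasmic polyadenylation element of mRNAs and regulates their poly(A) tails and translation, and the arrays were made to survey mRNA levels after its loss. Each condition had 1 array and no replicate, so no test could be made, and each ratio describes these 2 arrays.

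Translation of most mRNAs begins when eIF4F binds the cap. Its parts are the cap-binding protein eIF4E, the scaffold eIF4G and the helicase eIF4A. The 40S ribosomal subunit carries eIF1, eIF1A, eIF3, eIF5 and the ternary complex of eIF2, GTP and initiator tRNA, and eIF2B recharges eIF2 with GTP between rounds. Stress kinases that phosphorylate eIF2 block eIF2B and slow this step, whereas 4E-binding proteins keep eIF4E from eIF4G until mTOR phosphorylates them. During elongation eEF1A delivers aminoacyl-tRNAs and eEF2 moves the ribosome along the mRNA. CPEB1 itself acts on this machinery, because it can hold mRNAs in complexes in which a partner blocks the contact of eIF4E with eIF4G.

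The values are MAS5 signals on a linear intensity scale, and the log2 ratio is that of siCPEB1 over siControl. To pass the signal filter, a probe set needed the median signal (21.6 in siCPEB1 and 21.0 in siControl) on 1 array or both, and no less than the 25th percentile (5.62 in siCPEB1 and 5.07 in siControl) on the remaining one. Cpeb1 itself had a signal of 38.5 in siCPEB1 and of 302 in siControl, 7.86-fold lower at its 1 probe set. Of 11 Neuro2a markers, 10 reached the array median on each array and Th did not, and the summed signal of the 11, each at its brightest probe set, was 12972 in siCPEB1 and 11065 in siControl. Behind these sums single markers differed more, with Isl1 4.62-fold, Gata3 3.73-fold, Ddc 2.38-fold, Chga 1.95-fold and Dbh 1.76-fold higher and Gata2 1.40-fold lower in siCPEB1. At a dimmer probe set that passed the filter, Dbh was 2.03-fold higher. Of 16 markers of fibroblasts, haematopoietic cells, endothelium and glia, 4 reached it in siCPEB1 and 3 in siControl, with a summed signal of 317 in siCPEB1 and 217 in siControl, and 12 were below it on both arrays, among them Ptprc, Cdh5, Gfap and Col1a1. The others were Pecam1 (58.9 in siCPEB1 and 35.9 in siControl), Mbp (54.8 in siCPEB1 and 58.1 in siControl, but 45.4 in siCPEB1 and 23.0 in siControl at a probe set not marked as cross-hybridizing), Pdgfra (39.8 in siCPEB1 and 25.9 in siControl) and Tyrobp (22.8 in siCPEB1 and 9.62 in siControl, where it was below the median). All but the brightest probe set of Mbp were higher in siCPEB1 at these probe sets. The spread within these arrays was measured from probe sets of the same gene, which differed with a pooled SD of 0.37 on the log2 scale (14939 probe sets of 5531 genes). The 18 hybridization control probe sets had a mean log2 ratio of -0.13 (SD 0.075) and the 24 poly-A control probe sets one of -0.18 (SD 0.185). None of these SDs holds any variation from culture to culture, and the part of the control probe sets' offset and of the markers in the members' ratios was not tested.

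The translation factors as a whole were close to level between the arrays, with a few exceptions of which the cap-binding protein gene Eif4e3 was the furthest. Of the 141 member probe sets, 120 passed the filter, for 50 of the 53 genes. The 21 that did not pass had signals of at most 19.0 in siCPEB1 and 16.6 in siControl. They included every probe set of Eif4a3, Eef2kmt and the Y-linked Eif2s3y. Of the 120, 1 was higher by more than 2-fold, against a background of 4.49% of all probe sets that passed, and 1 was lower by more than 2-fold, against 4.04%. At 1.5-fold, 4 of the 120 were higher (3.33%, against a background of 12.9%) and 13 were lower (10.8%, against a background of 12.1%). Past the pooled SD, 17 were higher (14.2%, against 23.3%) and 22 lower (18.3%, against 21%). The share of member probe sets was thus below the background among the higher ones at each limit. Among the lower ones it was nearer to the background at 1.5-fold and at the pooled SD, but several of these belong to the same genes. With 1 probe set per gene, chosen as described below, 2 of 50 member genes were higher by more than 1.5-fold (4%, against a background of 13.4%). Another 2 were lower (4%, against a background of 10.8%).

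The members leaned slightly towards lower signals in siCPEB1. Of the 120 probe sets, 78 had a log2 ratio below 0 (65%, against a background of 48%) and 42 above it (35%, against 52%). With 1 probe set per gene, by preference one not marked as cross-hybridizing (_x_at or _s_at) and otherwise the brightest, 35 of 50 member genes had a log2 ratio below 0, which is 70%, against a background of 46.2% of 11554 genes, and 15 were above 0 (30%, against 53.8%). Their median log2 ratio was -0.12, with quartiles of -0.30 and 0.02, against a median of 0.05 over all genes. The lean was found among the brighter members, and the part of brightness in it was not tested. Translation factor mRNAs are abundant, and 30 of the 50 genes had a mean signal of at least 1000. These 30 had a median log2 ratio of -0.21, and 26 of them were below 0. Over all 1479 genes that bright the median was -0.03, and 798 of them were below 0. The 19 members with a mean signal from 100 to 1000 had a median of 0.02, against 0.05 over all 6513 genes in that range. After a loess fit, which removes the trend of the ratio with signal, the median of the 50 members was -0.08 and 31 were below 0, against a median of 0.03 over all genes.

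**Figure D1:**
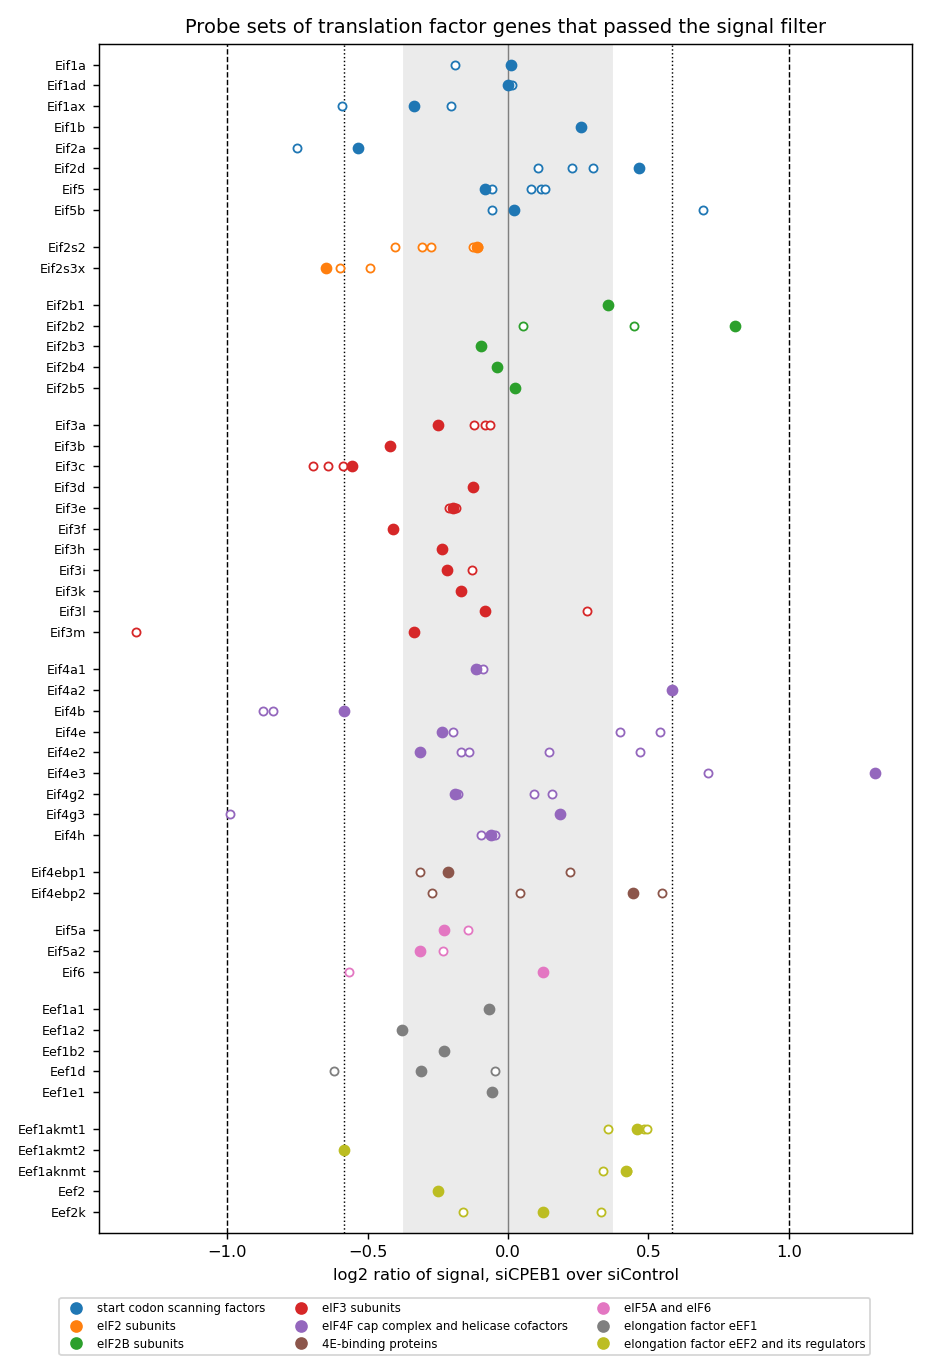
Log2 ratio of siCPEB1 over siControl (x axis) for the 120 member probe sets that passed the signal filter, by gene (rows) and role (colours); filled circles are the probe set that represents the gene, open circles its other probe sets, dashed lines mark 2-fold, dotted lines 1.5-fold, and the grey band the pooled SD of 0.37 between probe sets of the same gene. Eif4e3 lies beyond 2-fold to the right with 1 of 2 probe sets, the dim probe set of Eif3m lies beyond 2-fold to the left, and the filled circles of all eIF3 subunits lie left of 0. The colour labelled for eEF2 and its regulators also holds Eef1akmt1, Eef1akmt2 and Eef1aknmt, which methylate eEF1A.

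**Figure D2:**
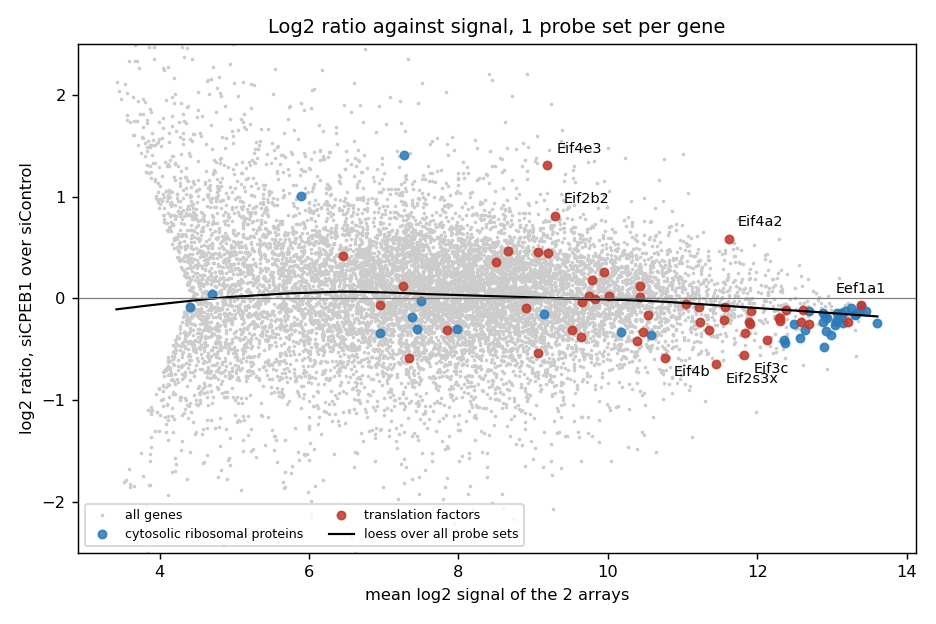
Log2 ratio of siCPEB1 over siControl (y axis, with 44 genes beyond 2.5 not drawn) against the mean log2 signal of the 2 arrays (x axis) for 1 probe set per gene, with all genes in grey, cytosolic ribosomal proteins in blue, translation factors in red and the loess curve in black. The curve falls slightly below 0 at high signals, where most translation factors lie, while Eif4e3, Eif2b2 and Eif4a2 lie above it and Eif4b, Eif2s3x and Eif3c below it.

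The promoter sequences of the members were compared with all others, since the choice of members did not use them. RefSeq windows of 300 bases on GRCm38.p6 (250 before the annotated start and 50 from it on) were at hand for 42 of the 53 genes, with 53 windows in all. The motifs were picked with the expression values already known. The palindrome CACGTG, the E-box that bHLH factors such as MYC can bind, was in 14 of 53 member windows (26.4%, for 12 genes), against 7.15% of 32851 windows of all genes and 9.80% of 12063 windows of genes that passed the filter. Windows of 1 gene can overlap, as some of Eif5a do, so they are not separate sequences. Of these the following are shown, for a helicase, a cap-binding protein, a ribosome-binding subunit and 2 factors of the elongating ribosome, because they hold the motif that was more frequent in member windows. Each is read in the direction of the gene, with CACGTG in capitals.
Eif4a1, chr11:69672597-69672622, minus strand: atcgcctccgCACGTGtaaaggtgct
Eif4e, chr3:138527194-138527219, plus strand: acacgtccgtCACGTGggcaggagcc
Eif3f, chr7:108934337-108934362, plus strand: agatatgattCACGTGgtataaattt
Eif5a, chr11:69921445-69921470, minus strand: ggggcggggtCACGTGtgtgcgtcat
Eef2, chr10:81176578-81176603, plus strand: ccggcgccgtCACGTGacgcacccaa
The motif began 189 bases before the annotated start in Eif4a1, 64 in Eif4e, 68 in Eif3f and 43 in Eef2. The 12 genes with CACGTG had a median log2 ratio of -0.20 (from -0.41 to 0.42, 9 below 0). The 27 measured genes without it had one of -0.08 (from -0.65 to 0.81, 19 below 0), so the 2 sets overlapped over the whole range of the first. The genes whose CACGTG windows are shown were all below 0. Eef1aknmt (0.42), Eif1b (0.26) and Eef2k (0.12), which also hold CACGTG, were above 0 and are not shown.

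The other motifs were not more frequent by a similar margin. TGACGTCA, the cAMP response element, was in 1 member window, that of Eef2 (1.89%). It was in 1.79% of all windows and in 3.08% of windows of genes that passed the filter. TGATGCAA, or TTGCATCA on the other strand, is a form of the element bound by ATF4 and CEBP. It was in 0 of 53 member windows, in 0.895% of all windows and in 0.613% of windows of genes that passed the filter. Many mRNAs of the translation machinery begin with a C followed by a run of pyrimidines, the 5′ terminal oligopyrimidine (TOP) motif, through which mTOR and LARP1 control them. A C at the annotated start followed by 4 bases that are each C or T was in 2 member windows, those of Eif2s3x and Eif3f. These are 3.77%, against 2.51% of all windows and 2.48% of windows of genes that passed the filter. The annotated start can differ from the one used in these cells. The 15 bases on either side of it are shown for these genes and for Eif4b, whose mRNA is counted among the TOP mRNAs, with the bases from the annotated start on in capitals.
Eif2s3x, chrX:94212637-94212666, minus strand: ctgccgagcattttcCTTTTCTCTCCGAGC
Eif3f, chr7:108934400-108934429, plus strand: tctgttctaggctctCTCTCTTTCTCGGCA
Eif4b, chr15:102073758-102073787, plus strand: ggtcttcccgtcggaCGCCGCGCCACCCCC

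Among the cap-binding proteins, Eif4e3 was higher in siCPEB1 while Eif4e and Eif4e2 were split between probe sets. Eif4e3, an eIF4E relative that binds the cap but can counteract eIF4E, had signals of 918 in siCPEB1 and 371 in siControl at its brighter probe set, 2.48-fold higher. At its other probe set the signals were 407 in siCPEB1 and 248 in siControl, 1.64-fold higher. Both ratios (log2 1.31 and 0.71) exceeded the spread between probe sets of 1 gene, and this was the only member gene past 2-fold at the probe set that represents it. Eif4e, the main cap-binding protein, had signals of 2216 in siCPEB1 and 2607 in siControl at its brightest probe set and of 717 in siCPEB1 and 821 in siControl at the next, with log2 ratios of -0.23 and -0.20. A dimmer probe set had 132 in siCPEB1 and 100.0 in siControl (log2 ratio 0.40). At the dimmest, with 22.3 in siCPEB1 and 15.3 in siControl, the siControl signal was below the array median, and with that signal set at the median the ratio would be 1.06. Eif4e2, also known as 4EHP, which binds the cap without eIF4G and represses translation, had log2 ratios from -0.31 to 0.47 at 5 probe sets. Its brightest 2 gave 657 in siCPEB1 and 817 in siControl, and 688 in siCPEB1 and 621 in siControl, so no direction is given for Eif4e2. The brighter probe sets of Eif4e were within the spread.

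The helicase part of eIF4F differed between its 2 measured paralogs. Eif4a1, the more general eIF4A helicase, had log2 ratios of -0.11, -0.11 and -0.09 at 3 probe sets, with signals of 5111 in siCPEB1 and 5525 in siControl at the brightest. These are within the spread, and the sign turned after loess and after quantile normalization. Eif4a2, the close paralog that has also been tied to repression by microRNAs, had signals of 3855 in siCPEB1 and 2572 in siControl at its 1 probe set, with a log2 ratio of 0.58, just under 1.5-fold. Eif4b, an RNA-binding cofactor that stimulates eIF4A, was lower at all 3 probe sets, with 349 in siCPEB1 and 638 in siControl (1.83-fold lower), 892 in siCPEB1 and 1594 in siControl (1.79-fold lower), and 1416 in siCPEB1 and 2123 in siControl (log2 ratio -0.58). All 3 ratios exceeded the spread. Eif4h, a cofactor related to Eif4b, had log2 ratios from -0.09 to -0.05 at 4 probe sets.

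The scaffolds were within the spread at their bright probe sets. Eif4g2, an eIF4G relative without an eIF4E-binding site, had signals of 4683 in siCPEB1 and 5340 in siControl at the probe set that represents it (log2 ratio -0.19). Eif4g3 had 944 in siCPEB1 and 830 in siControl (0.18), but its dim probe set had 28.7 in siCPEB1 and 57.1 in siControl (-0.99), on the other side of 0. Of the 4E-binding proteins, Eif4ebp1 had 2798 in siCPEB1 and 3241 in siControl (-0.21), with -0.31 at an _x_at probe set and 0.22 at a dim one. Eif4ebp2, the form most abundant in brain, had 684 in siCPEB1 and 503 in siControl (0.44), with 0.55, 0.04 and -0.27 at dimmer probe sets. Both genes thus had probe sets on both sides of 0, which differed from each other by more than the spread between probe sets of 1 gene.

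**Figure D3:**
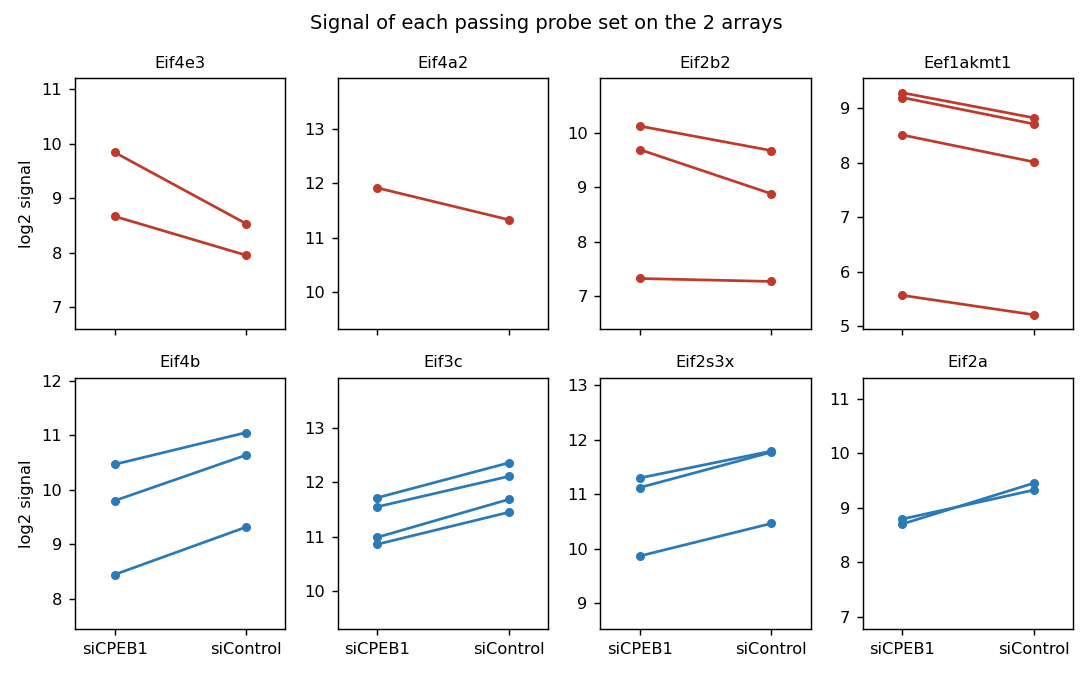
Log2 signal (y axis, each panel spanning the same range) of each probe set that passed the filter on the siCPEB1 and siControl arrays (x axis), for 4 genes higher and 4 genes lower in siCPEB1; each line is 1 probe set, red where higher and blue where lower in siCPEB1. The genes were picked with their values known, and every probe set drawn for a gene runs the same way. Among member genes with 2 or more passing probe sets, 20 of 33 do so. The widest step is at the brighter probe set of Eif4e3, and Eif4a2 has a single probe set.

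The subunits of eIF3 were slightly lower throughout, with 21 of 22 passing probe sets below 0. eIF3 is the large complex that holds the 40S subunit to eIF4G. All 11 measured subunit genes had a log2 ratio below 0 at the probe set that represents them, with a median of -0.24. Of these probe sets, only those of Eif3b, Eif3c and Eif3f were past the spread between probe sets of 1 gene. All 11 stayed below 0 under each of the 4 other scalings of the same arrays (median -0.15 after loess and -0.17 after quantile normalization). By the mean of all passing probe sets 10 of 11 were below 0. Among all genes with a mean signal of at least 1000, to which all these subunits belong, 798 of 1479 were below 0. Eif3c, a core subunit, was the furthest at bright probe sets, with 2994 in siCPEB1 and 4405 in siControl, and 1857 in siCPEB1 and 2790 in siControl. At its 2 _x_at probe sets it had 3357 in siCPEB1 and 5234 in siControl, and 2029 in siCPEB1 and 3286 in siControl. These are 1.47- to 1.62-fold lower, all 4 past the spread.

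Eif3b and Eif3f, with 1 probe set each, were next. Eif3b, the RNA-binding subunit of the core, had 1155 in siCPEB1 and 1546 in siControl (log2 ratio -0.42). Eif3f, whose promoter is shown above, had 3873 in siCPEB1 and 5148 in siControl (-0.41). Eif3a, the largest subunit, had log2 ratios of -0.25, -0.12, -0.08 and -0.07, all within the spread. Eif3m had 1258 in siCPEB1 and 1586 in siControl (-0.33) at the probe set that represents it, an _s_at one. Its other probe set, an _x_at one, was the only member probe set lower by more than 2-fold, with 14.1 in siCPEB1 and 35.4 in siControl. With the siCPEB1 signal set at the array median, below which a signal is not well measured, it would be 1.64-fold lower. Eif3d, Eif3e, Eif3h, Eif3i, Eif3k and Eif3l had log2 ratios from -0.24 to -0.08 at the probe sets that represent them.

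Of the 2 measured eIF2 subunit genes, Eif2s3x was lower and Eif2s2 was within the spread at its brightest probe set, while those of eIF2B were level or higher. Eif2s3x encodes the gamma subunit, which holds GTP and the initiator tRNA, and its start site is shown above. It had 2230 in siCPEB1 and 3498 in siControl (1.57-fold lower), 934 in siCPEB1 and 1413 in siControl (1.51-fold lower), and 2520 in siCPEB1 and 3545 in siControl (1.41-fold lower), so all 3 probe sets exceeded the spread. Eif2s2, the beta subunit, had log2 ratios from -0.40 to -0.11 at 6 probe sets, with 6032 in siCPEB1 and 6518 in siControl at the brightest, whose sign turned after loess and quantile normalization. Of the 5 subunits of the exchange factor eIF2B, Eif2b2 was higher, with 828 in siCPEB1 and 472 in siControl (1.75-fold). Its 2 _x_at probe sets had 1116 in siCPEB1 and 818 in siControl (1.36-fold higher) and 161 in siCPEB1 and 155 in siControl (log2 ratio 0.05). The mean log2 ratio of the 3 was 0.44. Eif2b1 had 409 in siCPEB1 and 320 in siControl (0.35), and Eif2b3, Eif2b4 and the catalytic subunit gene Eif2b5 had log2 ratios of -0.10, -0.04 and 0.02.

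Factors of start codon selection and subunit joining went in both directions. Of 8 genes, 4 were below 0 and 4 above (median log2 ratio 0.01). The split depended on scaling, with 6 below and 2 above after division by the array median, and 3 below and 5 above after loess. Eif2a, which encodes an initiator tRNA-binding protein distinct from eIF2, was lower at both passing probe sets, with 443 in siCPEB1 and 642 in siControl (1.45-fold lower) and 416 in siCPEB1 and 700.3 in siControl (1.68-fold lower). Eif2d, a factor of non-canonical initiation and ribosome recycling, had 477 in siCPEB1 and 345 in siControl (log2 ratio 0.47), and its other 3 probe sets had ratios from 0.11 to 0.30. Eif1ax, the X-linked form of the scanning factor eIF1A, had 3239 in siCPEB1 and 4088 in siControl (-0.34), 380.1 in siCPEB1 and 438 in siControl (-0.20), and 79.7 in siCPEB1 and 120.2 in siControl (1.51-fold lower). Eif5, which activates the GTPase of eIF2, had log2 ratios from -0.08 to 0.13 at 5 probe sets. Eif5b, which joins the 60S subunit, had 1046 in siCPEB1 and 1031 in siControl (0.02), and 0.70 at a dim probe set with 62.3 in siCPEB1 and 38.5 in siControl.

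The elongation factors proper were slightly lower or level. Eef1a1, the general delivery factor, had 10461 in siCPEB1 and 10961 in siControl (log2 ratio -0.07), and its sign turned after loess and quantile normalization. Eef1a2, the form that replaces it in mature neurons and muscle, had 698 in siCPEB1 and 908 in siControl (-0.38), just past the spread. Of the exchange factor subunits, Eef1b2 had 5653 in siCPEB1 and 6620 in siControl (-0.23). Eef1d had 2355 in siCPEB1 and 2922 in siControl (-0.31), -0.05 at a dim probe set, and 1624 in siCPEB1 and 2495 in siControl (1.54-fold lower) at an _x_at one. Eef2, the translocase, had 6077 in siCPEB1 and 7216 in siControl (-0.25). Its inhibitory kinase Eef2k had log2 ratios of 0.12 and 0.33 at 2 probe sets and of -0.16 at an _s_at one.

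Enzymes that methylate lysines of eEF1A differed in direction. Eef1akmt1 had 625 in siCPEB1 and 454 in siControl at its brightest probe set, and the log2 ratios of its 4 probe sets were 0.36, 0.46, 0.49 and 0.49. This gene was picked after its values were seen, because they lie so close. Eef1aknmt, which methylates both the N terminus and a lysine, had ratios from 0.34 to 0.42 at 3 probe sets. Eef1akmt2 had 132 in siCPEB1 and 198 in siControl at its 1 probe set (-0.59), just past 1.5-fold. Of the factors beside elongation, Eif5a, which relieves stalled ribosomes and carries the amino acid hypusine, had 8805 in siCPEB1 and 10314 in siControl (-0.23). Its paralog Eif5a2 had -0.31 and -0.23. Eif6, which keeps the 60S subunit from joining too early, had 1436 in siCPEB1 and 1317 in siControl (0.12) and -0.56 at a dim probe set with 40.3 in siCPEB1 and 59.6 in siControl.

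Probe sets of the same member agreed about as often as elsewhere on the array. Of 33 member genes with 2 or more passing probe sets, 20 had all of them on the same side of 0 (60.6%), against a background of 63.3% of 5531 genes. Of the 20, 15 were below 0 and 5 above. The genes with all probe sets past the spread were Eif4e3 among the higher ones, and Eif4b, Eif3c, Eif2s3x and Eif2a among the lower ones.

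The members were set beside the other parts of the translation machinery. The 41 measured cytosolic ribosomal protein genes had a median log2 ratio of -0.19, with 38 below 0. After loess it was -0.07, close to the -0.08 of the translation factors, with 28 of 41 ribosomal protein genes and 31 of 50 translation factors below 0. The 8 measured members on a list of TOP mRNAs (Eef1a1, Eef1b2, Eef1d, Eef2, Eif3e, Eif3f, Eif3h and Eif4b) were all below 0, with a median of -0.24, against 46.2% of all genes and 798 of the 1479 genes with a mean signal of at least 1000. After loess 7 of 8 were, with a median of -0.13. The 19 cytosolic aminoacyl-tRNA synthetases had a median of -0.17, with 15 below 0 and Wars the only one past 2-fold (128 in siCPEB1 and 276 in siControl). The median of each of these lists was thus below that of all genes.

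Among the regulators that act on the members, several had a ratio further from 1 than any member gene but Eif4e3, at the probe sets that represent the genes. Of 43 genes with a median of -0.03, 1 was past 2-fold among the higher (background 4.99% of genes) and 2 among the lower (3.49%). Past 1.5-fold there were 2 higher (background 13.4%) and 6 lower (background 10.8%), and all 8 are named here. At both limits the higher genes were a smaller share than the background, and the lower ones a slightly larger share. The 2 lower by more than 2-fold, Ddit4 and Ppp1r15a, are also on the list of ATF4-controlled genes given below. Ppp1r15a, also known as GADD34, which brings a phosphatase to eIF2 and is itself induced by ATF4, had 766 in siCPEB1 and 1600.3 in siControl (2.09-fold lower). Ddit4, an inhibitor of mTOR complex 1, had 901 in siCPEB1 and 2287 in siControl (2.54-fold lower). Eif2ak3, the eIF2 kinase PERK of the endoplasmic reticulum, had 234 in siCPEB1 and 386 in siControl (1.65-fold lower). Eif2ak4, the amino acid sensor GCN2, had a log2 ratio of -0.34. Eif2ak1, also an eIF2 kinase, had log2 ratios of 0.44 and 0.52, and of -0.63 at a dim probe set. Eif2ak2, another, had -0.05 at its brightest probe set, and 0.40 and 0.13 at dimmer ones. Mknk1, a kinase of eIF4E, had 126 in siCPEB1 and 230 in siControl (-0.87), whereas its paralog Mknk2 had log2 ratios of 0.35 and 0.10. Larp1, the repressor of TOP mRNAs, had 739 in siCPEB1 and 1264 in siControl (-0.77). Eefsec, the elongation factor for selenocysteine, had 240.3 in siCPEB1 and 383 in siControl (-0.67). Pdcd4, an inhibitor of eIF4A, had 962 in siCPEB1 and 515 in siControl (1.87-fold higher), and Rictor, a subunit of mTOR complex 2, had 627 in siCPEB1 and 279.9 in siControl (2.24-fold higher), with 0.16, 0.17 and 0.72 at dimmer probe sets. Eif4enif1, the eIF4E-binding protein 4E-T found in complexes with CPEB1, had 714 in siCPEB1 and 619 in siControl (0.21).

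Genes controlled by ATF4, the transcription factor whose mRNA is translated more when eIF2 is phosphorylated, were lower as a list. Of 22, 21 were below 0 (median -0.55, and -0.51 after loess), against 46.2% of all genes, and 5 were lower by more than 2-fold, against a background of 3.49% of genes. Besides Ddit4 and Ppp1r15a these were Cebpb (802 in siCPEB1 and 2239.7 in siControl), Trib3 (538 in siCPEB1 and 1345 in siControl) and Ddit3 (888 in siCPEB1 and 2213 in siControl), the genes of the stress factors C/EBP beta, TRB3 and CHOP. With Atf5, Slc3a2, Slc7a11, Cebpg and Chac1 (log2 ratios from -0.84 to -0.62), 10 of 22 were lower by more than 1.5-fold, against a background of 10.8%. Atf4 had 3904 in siCPEB1 and 5387 in siControl (-0.46). Sesn2 was the gene above 0, with 0.25 at its brighter probe set and -0.30 at the dimmer one. This list was written with lower ratios of several of its genes already known, so its counts beside the background do not test it. Eif4ebp1, which ATF4 can also induce, had a log2 ratio of -0.21, within the spread, as given above. Phosphorylation of eIF2, 4E-binding proteins or eEF2 was not measured, and mRNA signals do not give the rate of translation.

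**Figure D4:**
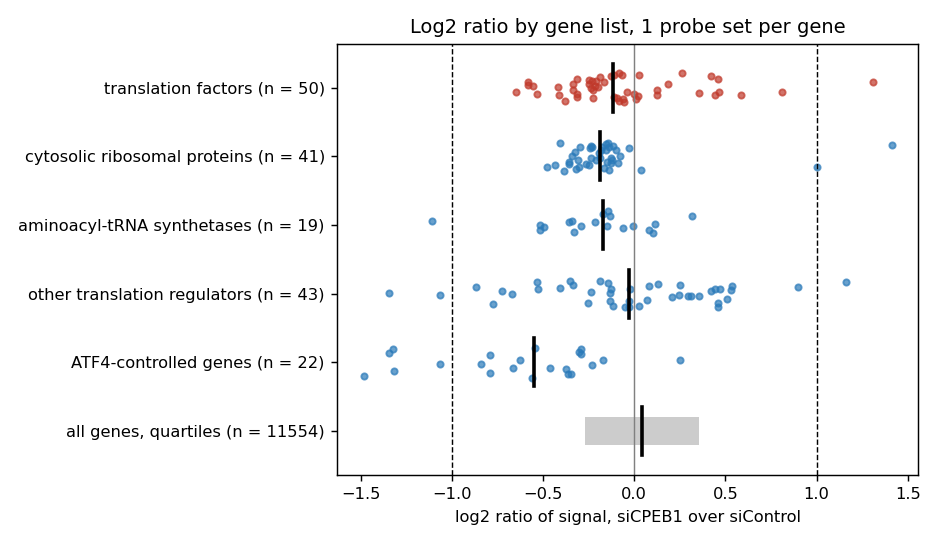
Log2 ratio of siCPEB1 over siControl (x axis) for each measured gene of 5 lists (points) with the median of each list (black bars), the quartiles of all 11554 genes in grey, and dashed lines at 2-fold. The translation factors and ribosomal proteins lie mostly within 2-fold and just below 0, and the regulators spread to both sides. The ATF4-controlled genes, a list written with lower ratios of several of its genes known, lie furthest to the left.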

How the data were processed

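The submitters' processing notes name MAS5 and Affymetrix Expression Console. The authors thus deposited 1 background-corrected intensity per probe set and array, not on a log scale. Software version and scaling target are not given in the sources used here. Ratios were formed as siCPEB1 over siControl with no offset and put on the log2 scale, and 64 control probe sets were left out of counts. The platform annotation gave 1 symbol for 34945 probe sets, several for 932 and none for 9160. All 141 member probe sets matched a RefSeq gene by identifier, with the same symbol.

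The member rule uses gene names alone, but it and the lists were chosen with earlier results of these data known. Named were members past 1.5-fold, 19 core factors, members with probe sets on opposite sides of 0 that differ by more than the spread, and regulators past 1.5-fold with Eif4enif1, Eif2ak3, Eif2ak4 and Atf4. The genes of the ATF4 list past 1.5-fold were named too. Eef1akmt1, Eif2ak1, Eif2ak2, Mknk2 and the genes that complete a role were added after their values were seen. Alternatives were 4 scalings, 16 added to both signals, 3 filters, the mean over a gene's probe sets and omission of _x_at and _s_at ones. The calculation was tested on simulated data with changes of more than 2-fold in brighter probe sets. That test does not bear on ratios as small as most of those given here. Python 3.11.15, numpy 2.4.6, pandas 2.3.3, statsmodels 0.14.6 and matplotlib 3.10.9 were used. Precision is limited by having 1 array in each condition.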

Additional observations from a re-analysis of the deposited data

How the results depend on the processing

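With no signal filter, all 141 member probe sets counted, and 7 were higher and 7 lower by more than 2-fold, and 12 higher and 21 lower by more than 1.5-fold. Without cross-hybridizing probe sets, 8 were lower by more than 1.5-fold and 0 by more than 2-fold. The count lower by more than 2-fold was also 0 when 16 was added to both signals, with a filter at the median of both arrays, and with a signal of at least 100 in both. It was 2 after division by the array median, division by the 75th percentile, quantile normalization or loess, since the dim probe set of Eif4g3 then joined that of Eif3m. The other counts stayed within 1.5 times, and the median log2 ratio of member genes lay between -0.16 and -0.06 under the 10 alternatives. Of 278 values for 28 named genes, 275 moved by less than the spread between probe sets of 1 gene. The other 3 came with the mean of passing probe sets (0.44 for Eif2b2, -0.83 for Eif3m and -0.40 for Eif4g3). This count shows little, because a filter changes a ratio only if it changes the probe set used, and the spread exceeds many of the ratios. With the mean of passing probe sets, 7 member genes changed sign, among them Eif4e (from -0.23 to 0.13) and Eif6 (from 0.12 to -0.22). After quantile normalization or loess, 4 did. No paired analysis was possible because each condition has 1 array. Ratios of dim probe sets are the least precise.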
